A study of Mus musculus with 12 samples.

Results

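The Hoxb genes are the homeobox genes of the Hoxb cluster on mouse chromosome 11. The 10 members, Hoxb1 to Hoxb9 and Hoxb13, were found by name, through the gene name or the accession that the array tables give for each probe. They were covered by 15 of 41174 probes, 1 probe for each of Hoxb1, Hoxb4, Hoxb5, Hoxb7 and Hoxb13 and 2 for each of the other 5 genes. Total RNA came from mouse embryonic stem (ES) cells, pluripotent cells cultured from the early embryo, in 2 groups: undifferentiated cells, and cells after 3 days in retinoic acid, a signalling molecule made from vitamin A that binds nuclear receptors. Each group had 3 samples labelled as biological replicates, each hybridised to 2 technical arrays, 12 one-colour Cy3 arrays in all. The labels give no cell line, strain, culture medium, feeder layer or dose, and leave it unsaid whether each sample was its own culture, so p-values here speak of the spread among these samples alone. The series is named for the acetylation of a histone lysine during differentiation, and these arrays ask how transcript levels change with it.

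Hox genes encode transcription factors that give cells of the embryo their position along the head-to-tail axis. In each cluster the genes lie in the order in which they act along that axis, and genes with low paralog numbers are typically switched on earlier and farther forward than those with high numbers. Retinoic acid is a known inducer of Hox genes, and response elements for its receptors lie near the front end of the Hoxb cluster. In pluripotent cells the clusters are known to be held silent by Polycomb proteins, and Hox proteins often bind DNA together with TALE homeodomain proteins of the Pbx and Meis families.

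RefSeq's promoter table (build GRCm38.p6) held only 3 of the 10 members, and the 250 bases before the start of each are shown for that reason. In the results described next Hoxb1 (chr11:96365508-96365757, plus strand) did not pass the test. Hoxb4 (chr11:96318017-96318266, plus strand) rose moderately. Hoxb8 (chr11:96281655-96281904, plus strand) rose strongly, though less than Hoxb2, Hoxb6 and Hoxb5. Capitals mark the motifs found.
Hoxb1: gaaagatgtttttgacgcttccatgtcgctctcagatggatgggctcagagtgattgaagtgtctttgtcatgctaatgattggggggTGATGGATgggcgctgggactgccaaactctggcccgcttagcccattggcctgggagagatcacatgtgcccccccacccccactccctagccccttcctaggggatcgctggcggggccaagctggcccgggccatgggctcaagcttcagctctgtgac
Hoxb4: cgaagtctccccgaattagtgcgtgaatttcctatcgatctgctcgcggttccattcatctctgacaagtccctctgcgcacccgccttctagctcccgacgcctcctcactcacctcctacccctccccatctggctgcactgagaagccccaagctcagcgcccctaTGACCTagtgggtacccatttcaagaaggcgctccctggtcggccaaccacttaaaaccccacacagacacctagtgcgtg
Hoxb8: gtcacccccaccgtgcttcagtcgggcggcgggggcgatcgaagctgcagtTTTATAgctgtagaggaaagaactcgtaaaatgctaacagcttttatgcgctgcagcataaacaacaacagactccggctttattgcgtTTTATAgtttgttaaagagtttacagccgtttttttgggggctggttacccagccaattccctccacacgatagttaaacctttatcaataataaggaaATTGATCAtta
Both strands were searched for the hexamer that retinoid receptors bind, as AGGTCA, in the form AGTTCA, in the form GGTTCA or in the form GGGTCA, for direct repeats of these with 5 or 2 bases between them (DR5 and DR2, which overlap the hexamers by construction), for TATAAA and for TGATNNAT, a motif bound by Hox proteins with Pbx partners. The Hoxb1 window held TGATNNAT as TGATGGAT on the plus strand, 162 to 155 bases before the start, and the Hoxb8 window held it on the minus strand, 11 to 4 bases before the start. It occurred in 7.69% of the 32841 promoter windows of the same length. The Hoxb8 window also held TATAAA on the minus strand, at 199 to 194 and at 110 to 105 bases before the start, a motif found in 12.4% of all windows. The Hoxb4 window held the hexamer AGGTCA on the minus strand, 81 to 76 bases before the start. This hexamer was found in 14% of all windows, and 38.6% held at least 1 of the 4 hexamers. No DR5 or DR2 was found in the 3 windows, against 0.0883% and 0.174% of all windows. The windows held 7 (Hoxb1), 14 (Hoxb4) and 12 (Hoxb8) CpG dinucleotides, with a median of 6 over all windows, and a GC content of 59.2%, 58% and 44.4%, with a median of 52.4%. These matches describe the sequence only, and binding was not measured.

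Levels are given as log2 of the normalized intensity plus 50, and a change is the mean of the retinoic acid samples minus the mean of the undifferentiated samples on that scale, which understates the change of dim genes. The background of an array was set at the 95th percentile of its 27 negative control spots. Over the 12 arrays the median net intensity ran from 37.4 to 96.6, the background from 8.50 to 51.6, and 53.8% to 85.0% of probes lay above it, and the small number of arrays limits the precision. The header of technical array 2 of undifferentiated replicate 2 names that sample's other array; without it the same counts of 12 Hoxb probes and 9 Hoxb genes were called higher, and Hoxb1 was at -0.49. The labelled states were checked first: Pou5f1 and Nanog, which maintain pluripotency, differed by -4.72 ± 0.48 (SE) and -3.67 ± 0.23 (SE), both lower in retinoic acid (limma, adjusted p of 0.000465 and 6.33e-05), and all 10 pluripotency markers were above background on every array of both groups. The housekeeping genes Gapdh and Actb were not called (limma, adjusted p of 0.809 and 0.846), but neither is a close check of stability. Gapdh stood at 15.31 and 15.36, near the brightest spots of the arrays, and Actb differed by -0.17 ± 0.50 (SE).

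After retinoic acid, 9 of the 10 Hoxb genes rose, all but Hoxb1, where 17.6% of all genes tested were called higher. Hoxb2 rose most, from the level of the background to one of the larger rises on the array, followed by Hoxb6, Hoxb5, Hoxb8 and Hoxb3, while Hoxb7, Hoxb9, Hoxb4 and Hoxb13 rose less. Hoxb1, the first gene of the cluster, has 1 probe on the array. It was already well above background in undifferentiated cells and varied more between samples than between the groups. With 50 added before log2, the order by size was Hoxb2, Hoxb6, Hoxb5, Hoxb8, Hoxb3, Hoxb7, Hoxb9, Hoxb4, Hoxb13 and Hoxb1, and the order of Hoxb3, Hoxb5, Hoxb6 and Hoxb8 among themselves changed with the value added. The 95% intervals of neighbours in this order overlapped, except between Hoxb3 and Hoxb7 and, narrowly, between Hoxb2 and Hoxb6. Among the 15322 genes tested, ordered by change, Hoxb2 was at position 2, Hoxb6 at 12, Hoxb5 at 14, Hoxb8 at 26 and Hoxb3 at 31, Hoxb7, Hoxb9 and Hoxb4 stood at 152, 165 and 364, and Hoxb13 and Hoxb1 at 994 and 12420.

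**Figure D1:**
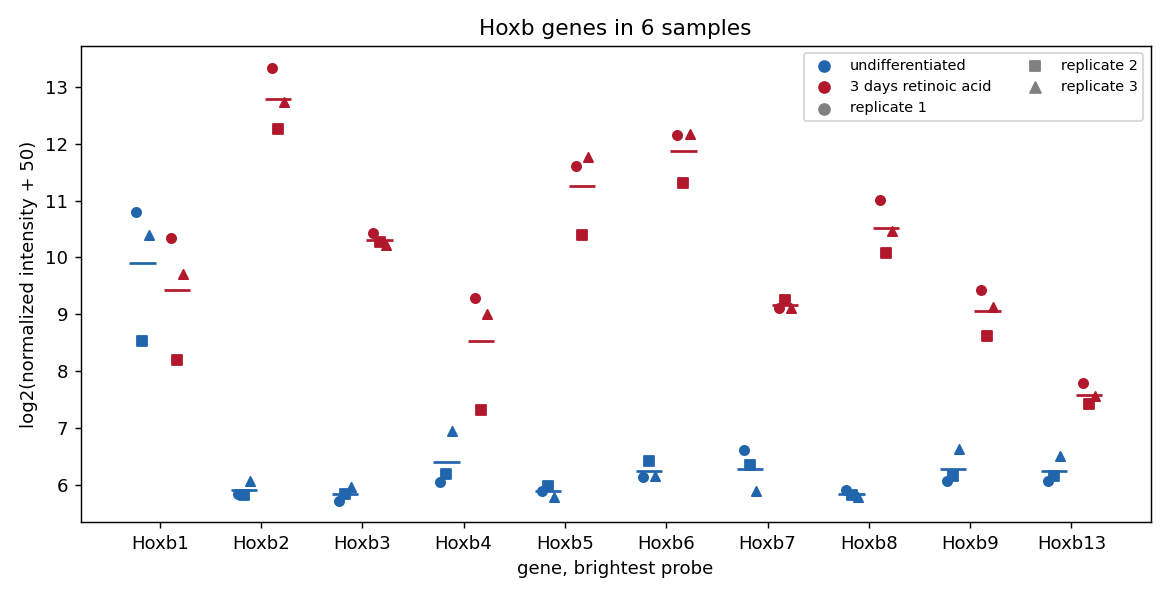
Log2(normalized intensity + 50) of the brightest probe of each Hoxb gene (y axis) in the 3 undifferentiated (blue) and 3 retinoic acid samples (red), genes along the x axis by paralog number; marker shapes are replicates and lines are group means. In 9 genes every red point lies above every blue point, and in Hoxb1 the groups overlap.

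A gene is given by its brightest probe, the one with the highest mean log2 level over all 12 arrays. The retinoic acid arrays enter this choice, so it can favour a probe that rises. In undifferentiated samples alone the second probe read higher in Hoxb6 (7.06 against 6.24) and Hoxb9 (6.51 against 6.29). In Hoxb2, Hoxb3 and Hoxb8 the 2 probes were nearly level there, close to the floor. A gene is called when the limma adjusted p of its brightest probe, over the 26587 probes tested, is under 0.05. By this rule 9 of 10 Hoxb genes were called higher and none lower, against a background of 17.6% of all genes tested called higher and 12.3% called lower. At an unadjusted p under 0.05 in limma, 12 Hoxb probes were higher and 0 lower, and of all 26587 probes 5161 were higher and 4893 lower. The 0 was nearly fixed in advance, since most Hoxb probes lay near the floor in undifferentiated cells. The same 9 genes had no overlap between the groups in the higher direction, which 25.7% of all genes tested showed (20.8% in the lower direction), and each was called and at least 2-fold higher, which 10.2% showed. The median change of the 10 genes was 3.66, and that of all genes tested was 0.0035. Of the 14 Hoxb probes tested, 12 were called higher, against 14.0% of all probes higher and 11.5% lower.

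All 10 genes were above background on all 6 retinoic acid arrays. Of the 9 that rose, 8 were above background on fewer than 4 of the 6 undifferentiated arrays, so they entered the test through the retinoic acid arrays alone and could hardly have been called lower. Among the 1029 genes of the array that were this dim in undifferentiated cells, 44.9% were called higher, with a median change of 0.51. In bulk samples, more cells expressing a gene and more RNA per cell cannot be told apart.

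Hoxb1, which acts in patterning of the hindbrain, had levels of 10.79, 8.53 and 10.40 in the undifferentiated samples (replicates 1 to 3) and 10.35, 8.20 and 9.72 in the retinoic acid samples. Replicate 2 was the low sample in both groups, and the ranges overlapped. As normalized intensity the undifferentiated samples were at 1724, 318 and 1304 and the retinoic acid samples at 1256, 245 and 791. The mean was 9.91 ± 1.21 (SD, n = 3) in undifferentiated and 9.42 ± 1.10 (SD, n = 3) in retinoic acid samples. The difference of -0.48 ± 0.70 (SE; 95% interval -2.11 to 1.14) was not called (limma, adjusted p = 0.663). This fit took no account of replicate number, and it does not exclude a rise or fall of up to those bounds. Between same-numbered samples the differences were -0.44, -0.32 and -0.69, all lower in retinoic acid. With the replicate number as a block the difference was -0.48 ± 0.16 (SE) and was not called (limma, adjusted p = 0.0774). Whether the numbers pair the samples is not settled. Without the block, the difference turned to 0.13 when retinoic acid replicate 2 was left out and to -1.18 without undifferentiated replicate 2. The 2 technical arrays of a sample differed by at most 0.14 in Hoxb1, far less than the samples did. It was above background on all 12 arrays. These levels rest on 1 probe, with no second probe to compare, and whether that probe reads Hoxb1 alone was not tested.

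**Figure D2:**
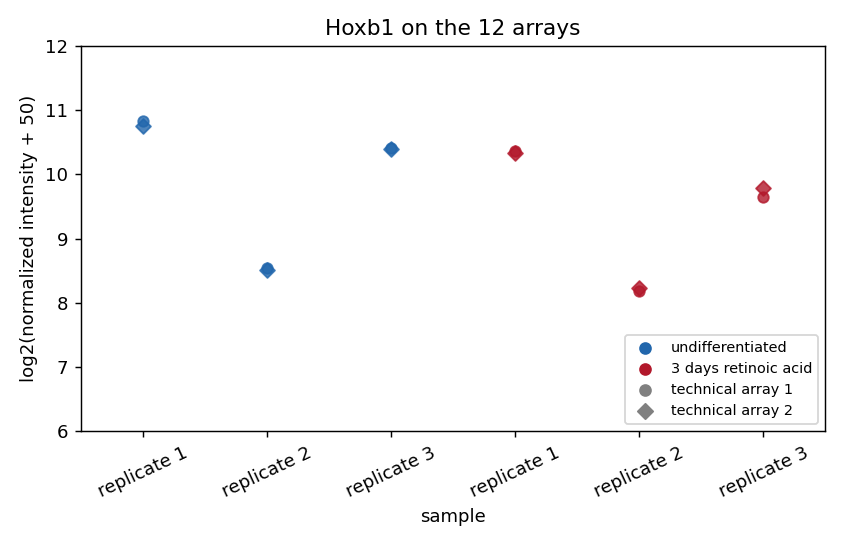
Log2(normalized intensity + 50) of Hoxb1 (y axis) on each of the 12 arrays, grouped by sample along the x axis, undifferentiated in blue and retinoic acid in red, circles for technical array 1 and diamonds for technical array 2. Technical arrays nearly coincide, and replicate 2 lies lowest in both groups.

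Hoxb2, its neighbour in the cluster and a hindbrain gene too, had levels of 5.85, 5.83 and 6.08 in undifferentiated samples and 13.34, 12.26 and 12.74 in retinoic acid samples. The groups were far apart, and the undifferentiated values lay near the floor of the scale, above background on 1 of 6 arrays. The rise was 6.86 ± 0.27 (SE; 95% interval 6.23 to 7.48; limma, adjusted p = 1.22e-05), from 5.92 ± 0.14 (SD, n = 3) to 12.78 ± 0.54 (SD, n = 3). A second probe, assigned to Hoxb2 through a cDNA clone rather than through the curated transcript, read 6.24, 5.74 and 5.78 in undifferentiated and 6.73, 6.48 and 6.47 in retinoic acid samples. That is a change of 0.64 ± 0.19 (SE; limma, adjusted p = 0.0414), a tiny rise beside that of the first probe, and 10 of the 19 alternatives that gave it a value lost this call. The 2 probes therefore disagree on size, and the part of the transcript that each reads is not known here.

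Hoxb3, which acts in the hindbrain and in the pharyngeal region, read 5.73, 5.84 and 5.97 in undifferentiated and 10.43, 10.26 and 10.22 in retinoic acid samples. Its retinoic acid samples were the most alike of the strong risers, and the change was 4.46 ± 0.15 (SE; 95% interval 4.10 to 4.81; limma, adjusted p = 7.61e-06). Its second probe had 5.93, 5.88 and 5.78 against 10.42, 9.02 and 10.89, a rise of 4.25 ± 0.43 (SE; limma, adjusted p = 0.000447). The 2 Hoxb3 probes gave rises of like size, but replicate 2 was the lowest retinoic acid sample in the second probe and not in the first. In RefSeq the span of Hoxb3 holds Hoxb4 and the miRNA Mir10a, so a probe within that span can match transcripts of more than 1 gene.

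Hoxb4, known for its action in blood stem cells as well as in the hindbrain, had levels of 6.06, 6.19 and 6.95 in undifferentiated and 9.28, 7.32 and 9.0 in retinoic acid samples. The groups did not overlap, but the highest undifferentiated and the lowest retinoic acid sample were only a short way apart. The change was 2.14 ± 0.51 (SE; 95% interval 0.96 to 3.31), the weakest call among the 9 (limma, adjusted p = 0.0187). The technical arrays of undifferentiated replicate 3 differed by 1.81 in this probe, 6.05 on the first and 7.85 on the second. The change stayed between 1.76 and 1.97 but was not called with undifferentiated replicate 1 left out (adjusted p = 0.0719), with retinoic acid replicate 1 left out (0.0647) or with retinoic acid replicate 3 left out (0.0729), each by limma. Technical array 2 alone, and a fit of all 12 arrays that took the sample as a random effect, also left Hoxb4 uncalled, with changes of 1.82 and 2.14.

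Hoxb5, expressed in the hindbrain, neural crest and lung in the embryo, read 5.90, 5.98 and 5.79 in undifferentiated and 11.60, 10.40 and 11.76 in retinoic acid samples. Its rise was 5.36 ± 0.34 (SE; 95% interval 4.57 to 6.16; limma, adjusted p = 6.43e-05), with replicate 2 again the lowest of the retinoic acid samples. Hoxb6, a neighbour that is known from limb and trunk mesoderm, read 6.14, 6.42 and 6.17 and then 12.16, 11.31 and 12.17, a rise of 5.64 ± 0.25 (SE; 95% interval 5.04 to 6.23; limma, adjusted p = 2.01e-05). The groups were separate in both genes. A second Hoxb6 probe, named through an Ensembl transcript, was above background on all 6 undifferentiated arrays and read 6.90, 7.31 and 6.96 against 7.20, 7.39 and 7.49. Its groups overlapped and its change of 0.31 ± 0.17 (SE; 95% interval -0.10 to 0.71) was not called (limma, adjusted p = 0.248), so the 2 Hoxb6 probes disagree. RefSeq places the antisense transcript Hoxb5os across Hoxb5 and Hoxb6 and Hoxb3os across Hoxb2 and Hoxb3; neither was analysed here.

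**Figure D3:**
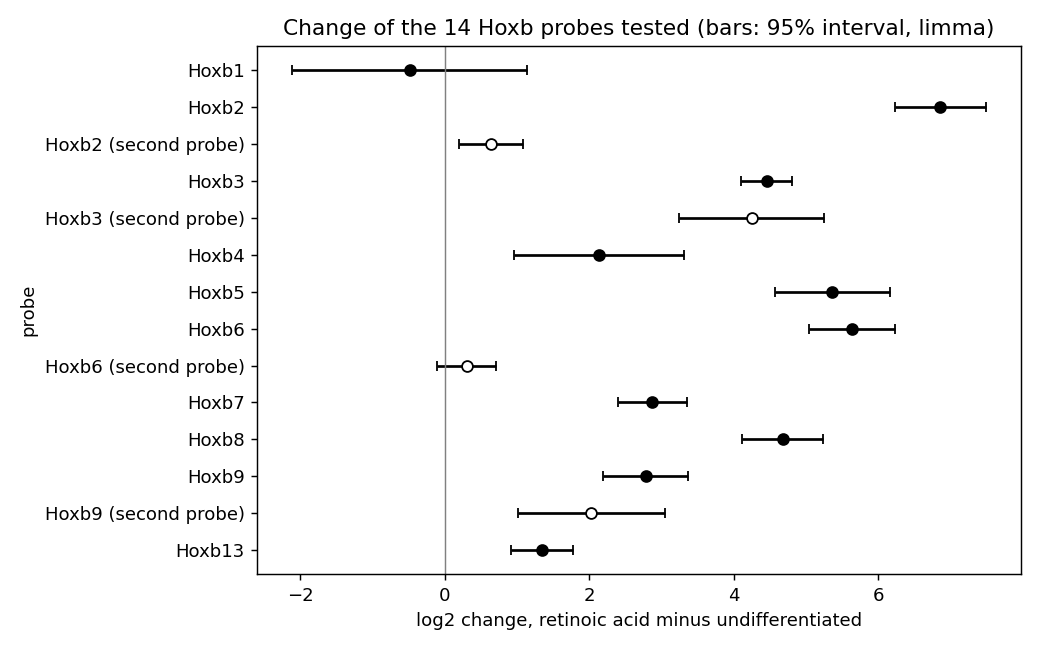
Log2 change, retinoic acid minus undifferentiated (x axis), of the 14 Hoxb probes tested (y axis), with 95% intervals from limma; filled points are the brightest probe of a gene and open points its second probe. The interval of Hoxb1 spans -2.11 to 1.14, and the second probes of Hoxb2 and Hoxb6 lie near 0 while their brightest probes lie above 5.

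Hoxb7, a gene of trunk and kidney duct, read 6.62, 6.35 and 5.90 in undifferentiated and 9.12, 9.25 and 9.11 in retinoic acid samples. The retinoic acid samples lay within a narrow band and the rise was 2.87 ± 0.21 (SE; 95% interval 2.39 to 3.35; limma, adjusted p = 9.30e-05). The spread of the undifferentiated samples came partly from replicate 1, whose technical arrays read 5.85 and 7.39. Hoxb8, which acts in the spinal cord and in myeloid cells, rose more, from 5.91, 5.82 and 5.78 to 11.01, 10.07 and 10.47. This was a change of 4.68 ± 0.24 (SE; 95% interval 4.12 to 5.23; limma, adjusted p = 2.71e-05). Its second probe was above background on 1 undifferentiated and 0 retinoic acid arrays and was not tested: it read 5.73, 5.95 and 5.98 against 6.01, 5.91 and 6.07. Both Hoxb8 probes carry the same accession, so 1 of them reports a strong rise and the other no signal above background.

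Hoxb9, a gene of the thoracic region, read 6.07, 6.16 and 6.64 in undifferentiated and 9.44, 8.63 and 9.13 in retinoic acid samples. The rise was 2.78 ± 0.25 (SE; 95% interval 2.19 to 3.37; limma, adjusted p = 0.000272). Its second probe, with the same accession, read 6.18, 6.25 and 7.12 against 9.44, 7.75 and 8.43, a rise of 2.03 ± 0.44 (SE; limma, adjusted p = 0.0128) that was not called without undifferentiated replicate 1 (adjusted p = 0.054). Hoxb13, the most posterior member, which acts in the tail region and prostate, read 6.07, 6.15 and 6.51 against 7.79, 7.43 and 7.56. The groups did not overlap, and the rise of 1.35 ± 0.18 (SE; 95% interval 0.92 to 1.77; limma, adjusted p = 0.00172) was the smallest among the genes called.

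Whether Hoxb1 changed less than each of the others was tested directly, as the difference of 2 probes within a sample, compared between the groups. The change exceeded that of Hoxb1 by 1.83 in Hoxb13 to 7.34 in Hoxb2. An exact two-sided permutation test gave p = 0.10 for Hoxb2 to Hoxb9, the smallest that 3 against 3 samples allow, and p = 0.20 for Hoxb13, with values adjusted over the 9 pairs of 0.1125 and 0.2. The design could therefore not reach 0.05 in this test.

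Because most Hoxb genes started near the floor, the size of their rise depended on the value added before the logarithm. With 1 added in place of 50 the rises ran from 2.51 in Hoxb13 to 9.36 in Hoxb2, and Hoxb3 (7.73), Hoxb5 (8.01) and Hoxb8 (7.47) then exceeded Hoxb6 (7.20). With 10 added, Hoxb2 rose by 8.44, Hoxb5 by 6.99, Hoxb6 by 6.74, Hoxb8 by 6.37 and Hoxb3 by 6.22. Hoxb1 differed by -0.52 and -0.51. Hoxb2 stayed first and Hoxb13 last of the genes called with 1, 10 or 50 added, but the order of the genes between them is not settled by these arrays.

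**Figure D4:**
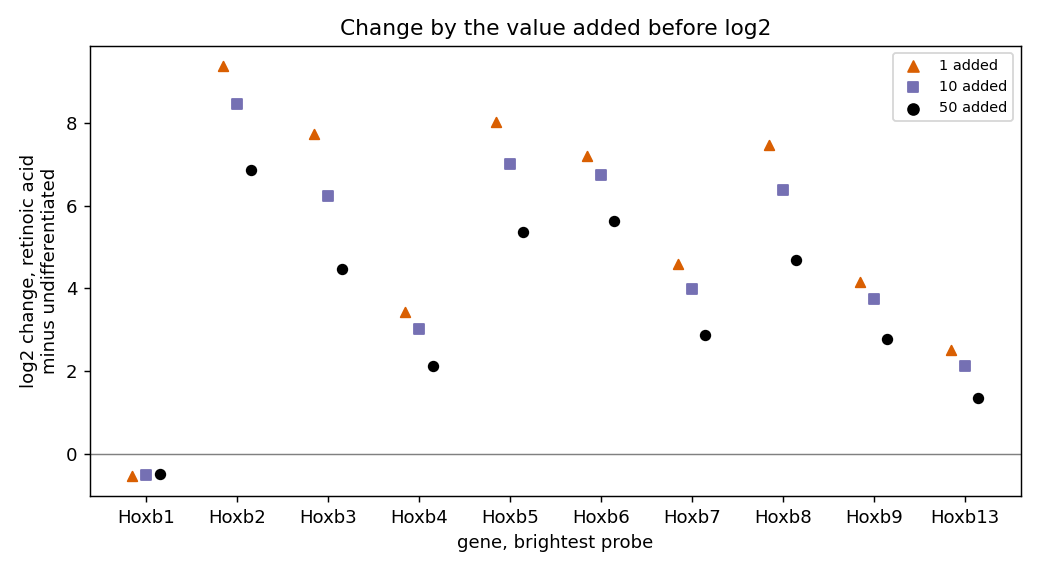
Log2 change of the brightest probe of each Hoxb gene (y axis) with 1 (triangles), 10 (squares) or 50 (circles) added before log2, genes along the x axis. Hoxb2 has the largest change at every value added, from 6.86 to 9.36, and Hoxb1 stays between -0.52 and -0.48.

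The retinoic acid samples differed among themselves. Replicate 2 was the lowest of the 3 in 7 of the 9 Hoxb genes called, or 77.8%, with Hoxb3 and Hoxb7 as the exceptions, against 39.4% of the 1568 genes that were called and at least 2-fold higher. Relative to the mean of the retinoic acid samples its median was -0.44 over the 9 Hoxb genes and -0.0013 over those 1568 genes. This is a description of 1 sample, with no test.

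Beside the Hoxb genes, genes of the other Hox clusters were called higher too, where 17.6% of all genes tested were called higher. Of 11 Hoxa genes 8 were tested and 6 called higher, with a median change of 3.35. Hoxa3 was not called by its brightest probe (0.40), but its second probe read a change of 2.67. Of 9 Hoxc genes 7 were tested and 3 called higher (median 0.69), and of 9 Hoxd genes 7 were tested and 6 called higher (median 1.35). None of these Hox genes was called lower in limma. Hoxd1, a paralog of Hoxb1, rose by 3.33 (limma, adjusted p = 2.10e-05). Hoxa2 rose by 3.46, less than Hoxb2, and Hoxa5 by 5.62, near Hoxb5. Among posterior paralogs Hoxa9 rose by 3.41 and Hoxc9 by 3.70 on the log2 scale. Hoxd9 rose by 1.35 on that scale, less than both, and its second probe by 0.90. In linear terms Hoxd9 was at least 4.43-fold higher, a bound because no undifferentiated array was above background. Hoxd13 rose by 0.83 by its brightest probe, but its second probe differed by -0.13. Hoxc13 differed by -0.07 and was not called. The differences between paralogs were not tested.

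**Figure D5:**
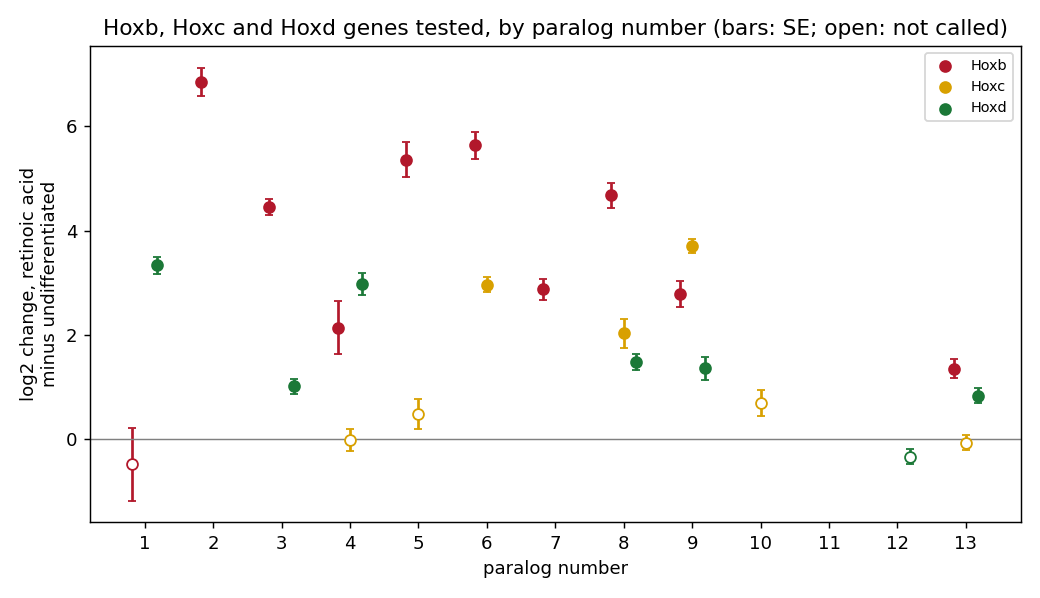
Log2 change, retinoic acid minus undifferentiated (y axis), of each Hoxb, Hoxc and Hoxd gene tested, by paralog number (x axis) and cluster (colour), with SE bars from limma; open points were not called. Hoxb1 is an open point at -0.48, and Hoxd1 lies at 3.33.

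Of the 6 genes on both sides of the cluster 1 was called higher and 1 lower, near the shares over all genes tested (17.6% and 12.3%). In the RefSeq gene order Calcoco2 and Ttll6 lie beyond Hoxb13, and Skap1, Snx11, Cbx1 and Nfe2l1 lie beyond Hoxb1. Skap1, an adaptor protein of T cells and the gene next to Hoxb1, rose from 7.14 ± 0.55 (SD, n = 3) to 8.49 ± 0.07 (SD, n = 3), a change of 1.35 ± 0.27 (SE; limma, adjusted p = 0.00895). Ttll6, an enzyme that adds glutamate to tubulin and the gene next to Hoxb13, fell by 0.76 ± 0.22 (SE; limma, adjusted p = 0.0397). Calcoco2 (-0.72), Snx11 (-0.38), Cbx1 (-0.29) and Nfe2l1 (-0.16) were not called, although a second probe of Cbx1 was called lower (-0.70; limma, adjusted p = 0.0295). The median change of the 6 neighbours was -0.34, against 3.66 for the Hoxb genes between them.

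Of the 9 TALE genes, whose products bind DNA with Hox proteins, 7 were called higher and none lower by limma, with a median change of 2.0. Meis2 rose by 5.71 ± 0.24 (SE; limma, adjusted p = 1.51e-05) and Meis1 by 3.69 ± 0.16 (SE), sizes within the range of the Hoxb genes. Pbx4 (0.27) and Pknox1 (-0.35) were not called. Of 16 tested regulators of Hoxb genes, which include Cdx factors, retinoid receptors and chromatin proteins, 6 were called higher and 2 lower (median -0.16). Over all genes tested 17.6% were called higher and 12.3% lower, the background for each list named here. The count of regulators called lower is near that share. Bmi1, a Polycomb protein, rose by 1.89 and the retinoid receptor partner Rxra by 1.38, whereas Eed and Suz12, core subunits of a Polycomb complex, were lower, at -1.46 and -1.07. Second probes read 0.74 for Bmi1, -0.05 for Rxra, 0.38 for Eed and -1.56 for Suz12, so Rxra and Eed differ between probes. Of 10 genes of the retinoic acid pathway 7 were called higher, with a median of 4.21. These included Cyp26a1 and Cyp26b1, enzymes that break down retinoic acid, which rose by 8.04 and 6.70, and Crabp2, a carrier protein, which rose by 6.17.

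By the root mean square distance over the 6 samples, each profile centred on its undifferentiated mean, the genes nearest to the median profile of the 9 Hoxb genes called higher were Zfp503 (distance 0.11 log2), Flrt3 (0.15), Cdc42ep1 (0.24), Aldh1a7 (0.25) and Raet1e (0.25), of 14247 candidates. Those nearest to Hoxb1 were Bax (0.35), Ldb1 (0.40), Fkbp8 (0.41), Aamp (0.42) and Usf2 (0.44). None of these 5 was called in limma, where their adjusted p ran from 0.409 to 0.963, which follows largely from choosing genes to match a change that was not called.

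Some marker lists of other cell types differed between the groups as well. The counts below stand against 17.6% of all genes tested called higher and 12.3% called lower. The summed normalized intensity of the 10 pluripotency markers was 126000 to 174000 in undifferentiated and 35500 to 45600 in retinoic acid samples, where 9 of 10 were called lower. The 8 trophoblast markers summed to 4320 to 6030 and then 48100 to 56100, with 4 of 7 tested called higher, 1 lower and Elf5 above background on 0 arrays. Of these, the keratins Krt18, Krt8 and Krt7 rose by 4.78, 4.65 and 4.2, while the transcription factor Tfap2c was lower, at -3.08. In retinoic acid samples the sum was mainly Krt18 and Krt8, at mean levels of 15.03 and 14.05, with Krt7 at 10.97. Eomes (-0.47) and Hand1 (0.43) were not called. The 10 fibroblast markers summed to 4520 to 9790 and then 26500 to 27400, with 6 of 8 tested called higher, 1 lower and Postn above background on 0 retinoic acid arrays. That sum follows mainly Tagln and Vim, at 13.70 and 13.43 in retinoic acid samples, with Col1a2 next at 9.78. Their second probes changed by 5.73, -0.01 and 0.11, against 5.25, 1.20 and 3.39 by the brightest, so Vim and Col1a2 differ between probes. Col1a1 was not called (-0.38) and Thy1 was lower, at -2.07. The 7 endoderm markers summed to 844 to 1690 and then 5490 to 6030 (4 of 7 called higher). The 7 mesoderm markers summed to 332 to 396 and then 1310 to 1660 (2 of 5 tested called higher; Mixl1 above background on 0 retinoic acid arrays). The 8 neural markers summed to 2620 to 3570 and 3340 to 3650, with 1 of 6 tested called higher, 1 lower, and Neurod1, Neurog2 and Otx2 above background on 0 retinoic acid arrays. The part of such cells in the Hoxb values was not tested.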

How the data were processed

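Per the file headers, the deposited scanner tables hold net mean intensity on a linear scale; the authors' method of background subtraction is unstated in these sources. Per the submitters' processing notes R 2.15.0 and limma were used. Per the labels' protocols, the RNA went through 1 round of amplification before Cy3 labelling. The authors' processed intensity, deposited for 41173 probes, held the same probe order as the scanner tables and served as an alternative.

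The 12 arrays were brought to 1 distribution by quantile normalization, and values were taken as log2 of intensity plus 50. Technical arrays were averaged, and the groups were compared with limma 3.58.1 in R 4.3.3 (lmFit, eBayes, two-sided, no covariates), with Benjamini-Hochberg adjustment over the 26587 probes above background on at least 4 of 6 arrays of either group. Called means an adjusted p under 0.05. Interval bounds are the fit's 95% limits. "At least N-fold" divides the bright group's mean by a mean over the dim arrays, where each array enters with its lowest signal above background or the probe's own signal, whichever is higher. Probes were named through the RefSeq table of GRCm38.p6 (27479 by accession, 5478 by symbol, 671 by older symbol), otherwise by the file's name or description, and 6277 had none. Figures used Python 3.11.15 and matplotlib 3.10.9.

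Members and gene lists were chosen with earlier results of these data known. All probes of the members were named, and of each list up to 3 genes with the largest change in each direction among those called without overlap; Hox paralogs, neighbours, second probes and genes not called were named after their values were seen. A few list members enter the counts and are not reported here by name. The noncoding transcripts of the cluster were not analysed here. On simulated data for this comparison (26587 probes, 200 changed, 10 runs) the fit recovered 33.8% of log2 changes of 1, 82% of 2 and 96.6% of 4. Of its calls 4.16% were false. Far more probes were called in the data (3725 higher and 3052 lower), so these shares need not hold there. Alternatives covered scaling, filter, offset, technical arrays, probe choice, variance model, threshold, the authors' values, a replicate block and each sample left out.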

Additional observations from a re-analysis of the deposited data

How the results depend on the processing

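The 9 Hoxb genes called higher kept their direction under the 21 alternatives wherever they gave a value, and the calls of Hoxb2, Hoxb3, Hoxb5, Hoxb6, Hoxb7, Hoxb8, Hoxb9 and Hoxb13 by their brightest probe held in each of the 20 that did. A filter on all 12 arrays left 0 Hoxb probes and 0 Hoxb genes called higher, since only Hoxb1 and the second Hoxb6 probe pass it, neither of them called. At an adjusted p under 0.01, 9 Hoxb probes and 8 Hoxb genes were called, and over the array 2121 probes higher and 1432 lower, 1612 genes higher and 969 lower. With 1 sample left out at a time, probes called ranged from 2365 to 4054 higher and 1608 to 3648 lower, and genes from 1783 to 3020 higher and 1060 to 1975 lower. Without retinoic acid replicate 1 there were 2449 and 1642 probes and 1837 and 1118 genes, and without retinoic acid replicate 3 there were 2365 and 1608 probes and 1783 and 1060 genes; Hoxb genes called stayed at 8 to 9. The Hoxb1 change, not called in any setting, ranged from -1.18 without undifferentiated replicate 2 to 0.13 without retinoic acid replicate 2, where it reversed. The median change of all probes was -0.047 with quantile scaling, -0.11 with the 75th percentile and -0.092 with the median, and 9 Hoxb genes were called under each. Whether the replicate numbers pair the samples is not settled by correlations over so few samples. In deviations from the group means, same-numbered samples correlated at -0.05, 0.28 and 0.14. The samples numbered 2 correlated best with each other, whereas undifferentiated replicate 1 correlated best with retinoic acid replicate 3 (0.25). With the replicate number as a block the same 12 Hoxb probes were called, 3624 probes were higher and 3045 lower, and Hoxb1 was at -0.48 ± 0.16 (SE; limma, adjusted p = 0.0774). Depth is limited by signal over background. In undifferentiated cells 8 of the 9 genes were above background on fewer than 4 of 6 arrays. Hoxb9, above it on 4, had a mean of 6.29 there, as low as Hoxb7 (6.29). The fold changes of all 9 genes are therefore approximate.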
